A study of Mus musculus with 16 samples.

Results

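Thyrotropes are the pituitary cells that make thyrotropin, and 6 of their genes are described here in fetal pituitary glands of mice with and without Insm1, a zinc finger transcription factor of neuroendocrine cells. The genes were chosen by symbol, taking all probes annotated to Tshb, Cga, Trhr, Gata2, Rxrg and Thrb. Each symbol had 1 probe among the 25697 on the array, and 5 of the 6 genes were bright enough to stand among the 9682 genes tested. The Thrb probe was not. Homozygous mutants labelled Insm1 -/- (6 arrays) were set against controls labelled Insm1 +/- (10 arrays), so the control glands carried 1 mutant allele as well. All glands came from embryos at embryonic day 17.5 of a mixed strain, C57/BL6;129Ola. The labels describe neither the construct of the mutant allele nor whether a sample held 1 gland or several, so a p-value here measures the spread between samples, part of which may be technical.

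Thyrotropin is a pair of protein chains. The beta chain, encoded by Tshb, is made by thyrotropes, and the alpha chain, encoded by Cga, is shared with the gonadotropins and is made by gonadotropes too. Thyrotropin releasing hormone from the hypothalamus acts on thyrotropes through the receptor Trhr and raises hormone output. Thyroid hormone closes the loop: bound to the receptor encoded by Thrb, which pairs with retinoid X receptors, it lowers transcription of Tshb and Cga. Gata2 encodes a zinc finger factor that works with the homeodomain factor Pou1f1 at the Tshb promoter of the mouse, and Rxrg encodes a retinoid X receptor found in mouse thyrotropes.

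Values are log2 intensities after background correction and quantile normalisation, and each change is mutant minus control on that scale. A probe is called detected on an array where its detection p-value, which compares it with negative control beads, was under 0.01. Mutant arrays had 12928 to 13671 detected probes and control arrays 12892 to 14156. Insm1 itself read from 11.43 to 12.04 in mutants (median 11.80), against 11.16 to 11.66 in controls (median 11.39), a change of 0.36 (SE 0.10, limma adjusted p = 0.0134) whose call was lost with median scaling (adjusted p = 0.0573) and within slide 1 (adjusted p = 0.249). The files do not place its probe relative to the mutated stretch, so it does not check the labels, and mutant means a sample so labelled. One control, number 10, stood apart from the other 9: it scored -2.42 on the first principal component, where controls 1 to 9 scored from 18.19 to 26.83 and mutants from -37.49 to -24.71, and it read 13.08 for the muscle gene Myl1 against 8.96 ± 0.19 (SD, n = 9). Results on the 5 tested genes are therefore given with and without it. The arrays lay on 2 slides, with 4 mutants and 4 controls on slide 1 and 2 mutants and 6 controls on slide 2.

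The hormone subunit genes had the largest changes of the set. Their promoters are shown because the products form 1 hormone and both transcripts fell. Each sequence is the 250 bases before the transcription start in RefSeq, build GRCm38.p6, read 5′ to 3′ on the strand of the gene. Capitals mark, on either strand, the letters GATA bound by Gata2 and its relatives, the letters AGGTCA bound by nuclear receptors, and the letters CAGGGG at the core of the Insm1 motif. Tshb lies on the minus strand at chr3:102782715-102782964 and Cga on the plus strand at chr4:34893529-34893778.
Tshb: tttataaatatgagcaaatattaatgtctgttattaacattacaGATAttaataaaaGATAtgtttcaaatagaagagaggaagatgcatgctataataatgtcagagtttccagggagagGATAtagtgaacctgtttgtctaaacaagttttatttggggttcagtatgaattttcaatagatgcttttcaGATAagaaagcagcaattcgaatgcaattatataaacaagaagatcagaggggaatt
Cga: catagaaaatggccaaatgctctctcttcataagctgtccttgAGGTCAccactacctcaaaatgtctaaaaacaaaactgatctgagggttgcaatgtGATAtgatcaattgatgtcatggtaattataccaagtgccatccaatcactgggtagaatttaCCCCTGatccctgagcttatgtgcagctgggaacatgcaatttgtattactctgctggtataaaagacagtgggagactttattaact

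The Tshb window held 4 matches to GATA, starting 206, 193, 129 and 57 bases before the start, and the Cga window held 1, at 151 bases. GATA is short, and 53.6% of the 32851 RefSeq promoter windows of this length held at least 1 match, while 3.52% held at least 4. Cga also had AGGTCA at 207 bases, which 14.0% of windows hold, and CAGGGG on the opposite strand at 88 bases, which 21.2% hold. No match to the Pit-1 letters TATNCAT (7.92% of windows), the Pitx letters TAATCC (6.25%) or the cyclic AMP response element TGACGTCA (1.55%) was found in either window. The E-box letters CANNTG, present in 66.2% of windows and left in lower case above, occurred 4 times for Cga and 0 times for Tshb. A match or its absence describes these letters only. RefSeq sequences were found for 5 of the 6 genes, Trhr being the other.

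Tshb had 1 of the most reduced transcripts of the comparison, at rank 5 of 9682 genes ordered from the lowest change. On the array it read from 9.53 to 10.75 in mutants (median 10.12), against 13.84 to 14.59 in controls (median 14.43). Every mutant lay below every control by at least 3 log2 units, yet its signal was detected in all 6 mutants. Raw intensities were 799 to 1971 in mutants, against 14387 to 25433 in controls. The change was -4.25 (SE 0.14, 95% interval -4.54 to -3.95, limma adjusted p = 8.35e-13), a 19.0-fold lower level. It was -4.49 on slide 1 (adjusted p = 9.05e-08), -3.85 on slide 2 (adjusted p = 2.97e-05) and -4.31 without control 10.

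Cga fell less, and its mutant arrays were more scattered. It read from 10.48 to 11.87 in mutants (median 11.40), against 13.75 to 14.39 in controls (median 14.16). The groups did not overlap. Mutants 3 and 6 were the lowest, at 10.51 and 10.48, and the other 4 mutants lay between 11.38 and 11.87. The change was -2.91 (SE 0.19, 95% interval -3.31 to -2.51, limma adjusted p = 5.34e-09), a 7.51-fold lower level. It was -2.81 on slide 1 (adjusted p = 3.50e-05), -3.07 on slide 2 (adjusted p = 0.00115) and -2.95 without control 10. In such whole-gland RNA, fewer cells of a type and less RNA per cell cannot be told apart.

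**Figure D1:**
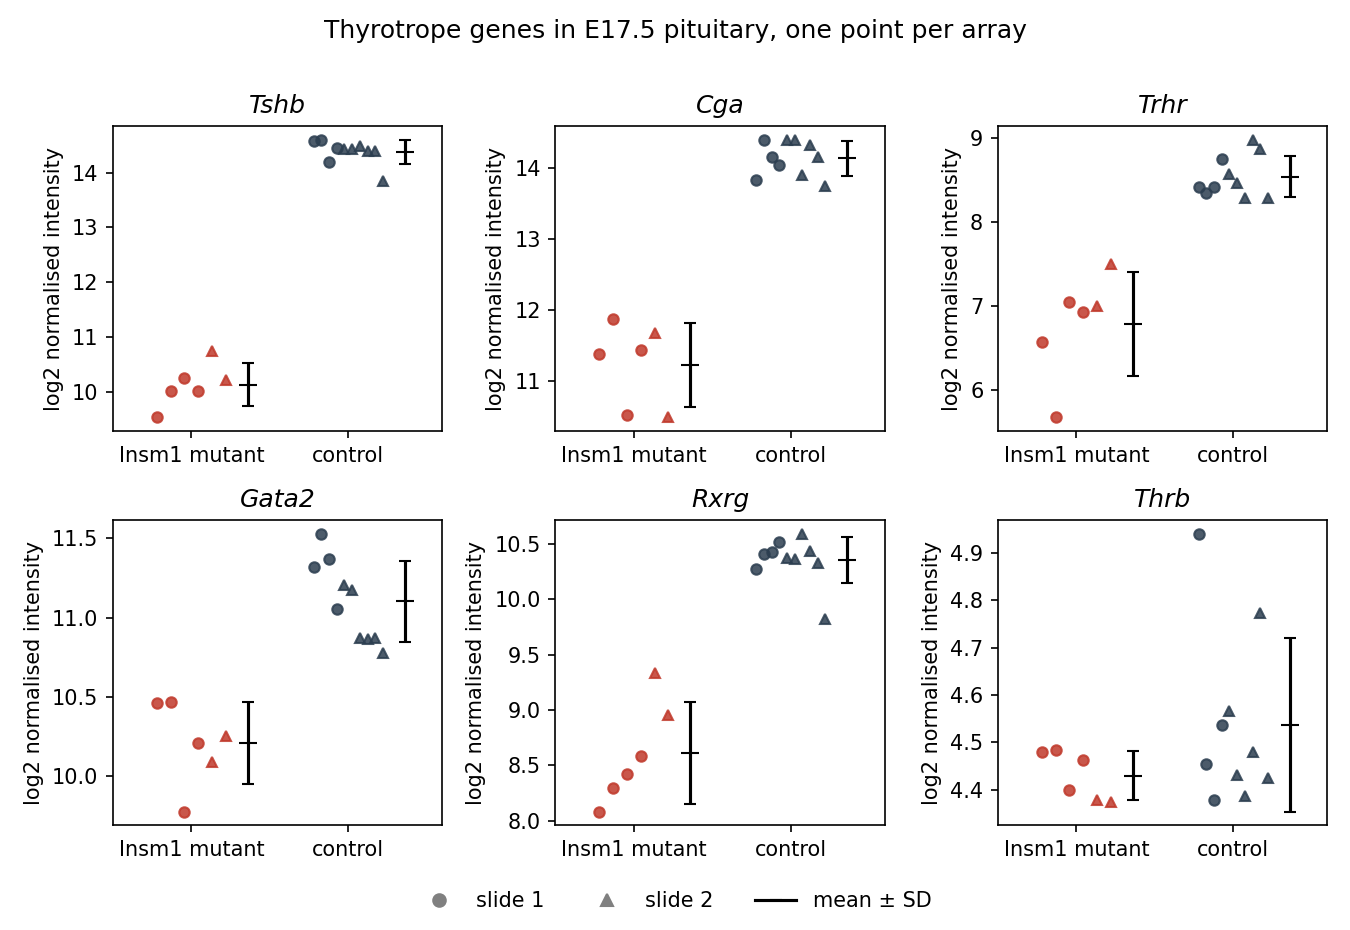
Log2 normalised intensity of the 6 genes on each array, Insm1 mutants (red, n = 6) left of controls (dark, n = 10); circles are slide 1, triangles slide 2, and bars are mean ± SD. For Tshb, Cga, Trhr, Gata2 and Rxrg every mutant point lies below every control point, and Thrb was detected on none.

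The 2 subunits changed by different amounts. The difference Tshb minus Cga on the same array lay between -1.85 and -0.25 in mutants, against 0.034 to 0.74 in controls, without overlap. The shift was -1.34, with p = 0.000125 in an exact two-sided permutation test over samples, the smallest p that the 8008 regroupings allow. It was -1.68 on slide 1 (exact permutation p = 0.0286) and -0.78 on slide 2 (exact permutation p = 0.0357), each the smallest two-sided p possible on that slide. Without control 10 it was -1.35. It is a difference of probe signals, not of transcript numbers. Within the groups the subunits did not follow each other: mutants 3 and 6, lowest in Cga, were above mutants 1, 2 and 4 in Tshb, and the correlation of deviations from the group means over all 16 arrays was -0.027 (Spearman) or 0.088 (Pearson). These arrays share slides and control 10.

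**Figure D2:**
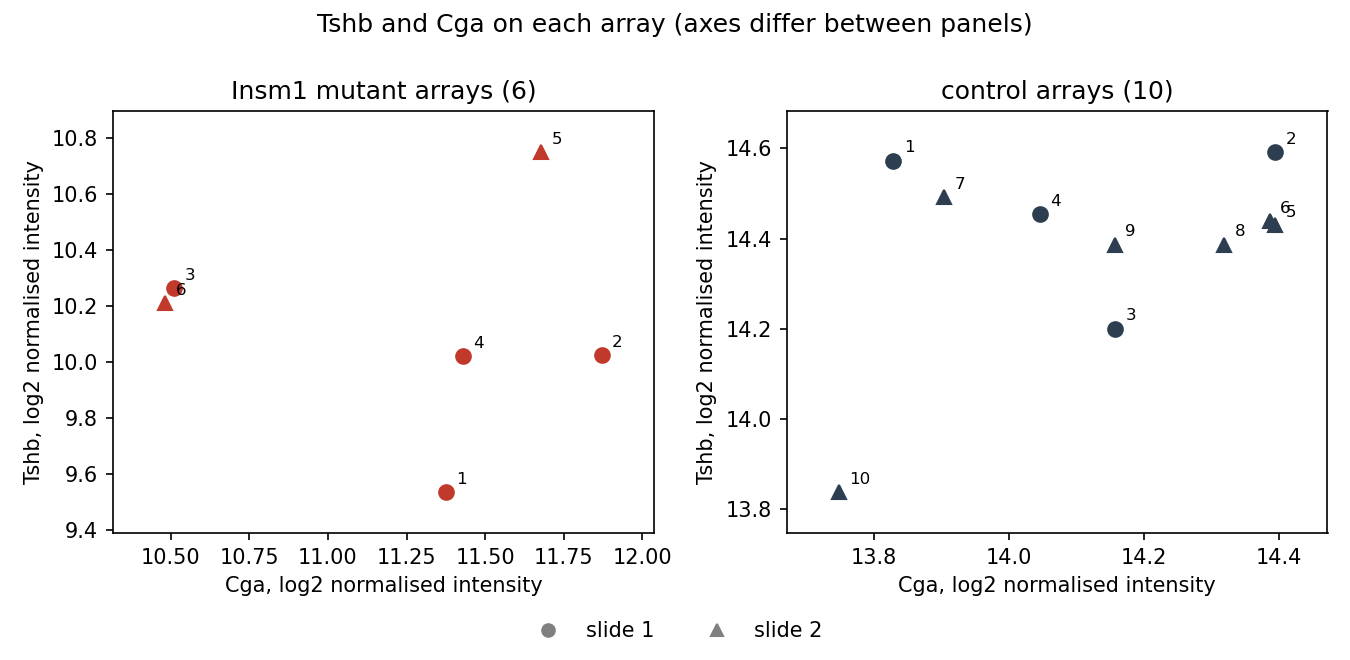
Tshb (vertical) against Cga (horizontal) in log2 normalised intensity, 1 point per array numbered by replicate, mutants left and controls right; circles are slide 1 and triangles slide 2. Mutants 3 and 6 sit near 10.5 for Cga with Tshb values of 10.26 and 10.21, and control 10 is lowest in both genes among the controls.

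Gonadotropes also make Cga, and their markers fell in the same samples. Lhb, the luteinising hormone beta chain, was detected in 0 of 6 mutants and in all 10 controls and fell at least 4.26-fold (limma adjusted p = 0.000283). Gnrhr, the receptor for gonadotropin releasing hormone, changed by -1.93 (SE 0.32, adjusted p = 0.000163). On slide 2 alone the adjusted p of Lhb was 0.0913. Fshb, the follicle stimulating hormone beta chain, was detected in 0 mutants and 5 controls and was not tested, and Nr5a1, a gonadotrope nuclear receptor, in none. Both gonadotrope markers tested fell, and the summed normalised intensity of the 4 markers was 194 to 487 in mutants, against 575 to 2671 in controls. How much of the Cga change came from gonadotropes was not tested. Of the other glycoprotein hormone chains, Gpha2 changed by -0.031 and was not called, and Gphb5 was detected nowhere. The somatotrope genes Gh (-6.75) and Ghrhr (at least 33.0-fold), of a lineage that shares Pou1f1 with thyrotropes, fell as well.

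Trhr, the receptor through which the hypothalamus drives thyrotropes, fell. It read from 5.67 to 7.50 in mutants (median 6.97), against 8.29 to 8.98 in controls (median 8.45). Mutant 2 was the lowest at 5.67 and mutant 6 the highest, and the groups did not overlap. The change was -1.75 (SE 0.20, 95% interval -2.17 to -1.34, limma adjusted p = 2.53e-06), a 3.37-fold lower level. It was -1.93 on slide 1 (adjusted p = 0.000640), -1.33 on slide 2 (adjusted p = 0.00811) and -1.78 without control 10. The signal of mutant 2 was near background (detection p-value 0.00627), and the change over all arrays was -1.33 when no background was subtracted (adjusted p = 3.08e-07).

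The transcription factor Gata2 had the smallest change of the 5 tested genes. It read from 9.77 to 10.46 in mutants (median 10.23), against 10.78 to 11.53 in controls (median 11.11). The groups did not overlap, although the highest mutant and the lowest control were only 0.3 log2 units apart. The change was -0.90 (SE 0.13, 95% interval -1.16 to -0.63, limma adjusted p = 3.06e-05), a 1.86-fold lower level. It was -1.09 on slide 1 (adjusted p = 0.00138), -0.79 on slide 2 (adjusted p = 0.0121) and -0.93 without control 10. Gata2 also serves gonadotropes, whose markers fell in the same samples as given above, and their part in this change was not tested.

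The nuclear receptor Rxrg fell by about as much as Trhr. It read from 8.08 to 9.33 in mutants (median 8.51), against 9.82 to 10.59 in controls (median 10.39). The groups did not overlap, with mutants 5 and 6, both on slide 2, the highest of their group at 9.33 and 8.96, and control 10 the lowest of its own. The change was -1.74 (SE 0.15, 95% interval -2.06 to -1.41, limma adjusted p = 1.47e-07), a 3.33-fold lower level. It was -2.06 on slide 1 (adjusted p = 2.57e-06), -1.17 on slide 2 (adjusted p = 0.00838) and -1.80 without control 10. The 95% interval of Rxrg lay within that of Trhr, and the order of the pair was not tested.

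Thrb, the thyroid hormone receptor gene of feedback control, was not measurable with its probe. The signal was detected in 0 of 6 mutants and 0 of 10 controls, with detection p-values of 0.615 to 0.921 in mutants, against 0.0789 to 0.912 in controls. The files do not place the probe within the gene or its isoforms. No change can be given.

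All 5 tested genes fell and had groups without overlap. Among all genes tested, 14.0% were called lower in mutants, 15.9% higher and 29.9% in either direction at an adjusted p under 0.05, and 5.26% had every mutant below every control. The 5 were again called lower within slide 1 and within slide 2, where 9.75% and 4.95% of all genes were, and without control 10, where 14.3% were. By size the order of falls was Tshb, Cga, Trhr, Rxrg, Gata2.

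**Figure D3:**
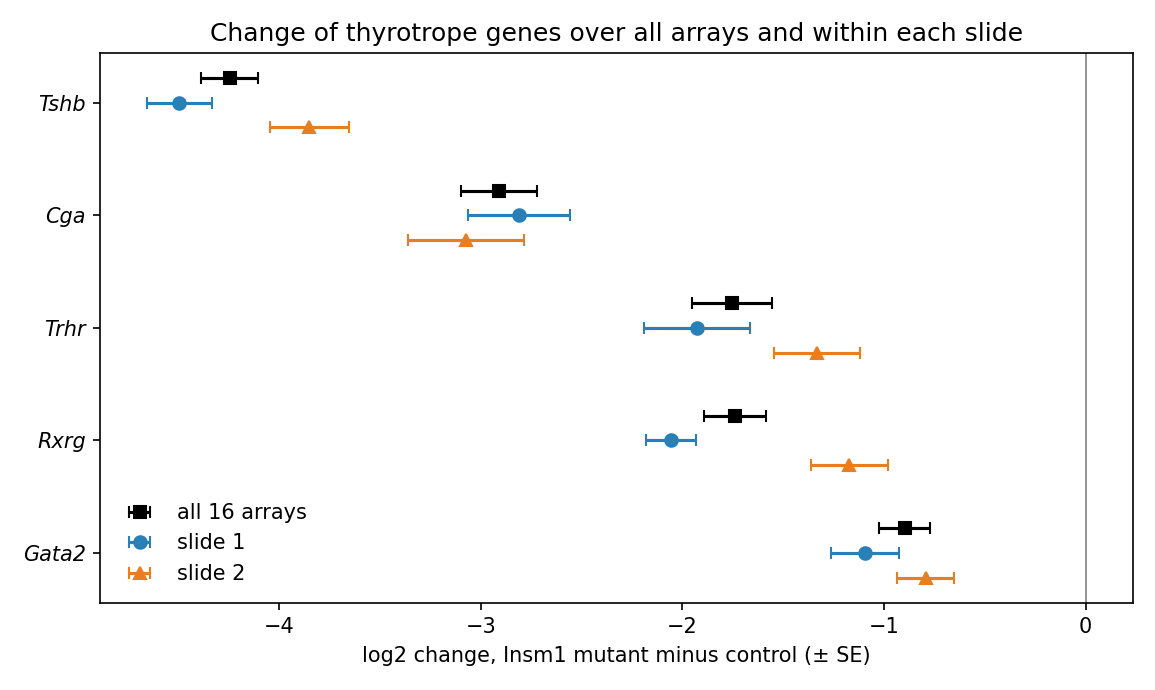
Log2 change, mutant minus control, with its SE for the 5 tested genes over all 16 arrays (squares), slide 1 (circles) and slide 2 (triangles). The 15 values lie below 0, and Tshb stands lowest in each set, at -4.25, -4.49 and -3.85.

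Of 67 other genes of the thyroid axis, 59 had a named probe and 38 were tested. In mutants 12 fell (31.6%, against 14.0% of all genes), 4 rose (10.5%, against 15.9%) and 22 were not called. Among the 12, Drd2, Sstr1, Dio3, Thrsp and Lhb were detected in no mutant. They passed the filter on control arrays alone, so the share that fell is a description. The median change was -0.051 (-0.025 with the 5 genes detected in no mutant put at their bound, or at 0 for Sstr1, which has none) against 0.033 over all genes. Within slide 2, 5 were called lower, where 4.95% of all genes were. The 4 that rose were Pitx1, Plcb3, Ncoa2 and Crym, and without mutant 4 only 1 was called higher. Of the 12 that fell over all arrays, 6 belonged to the list of thyroid hormone responsive genes, which had 6 tested. In the other lists 3 of 10, 0 of 7, 1 of 8, 1 of 5 and 1 of 2 tested genes fell.

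On the side of incoming signals, 3 of 10 tested genes fell and 1 rose, with a median of -0.077 (-0.044 with Drd2 and Sstr1 placed likewise). Drd2, a dopamine receptor best known from lactotropes, was detected in 0 of 6 mutants and 9 of 10 controls and fell at least 1.67-fold (limma adjusted p = 5.38e-05), although on slide 2 alone its adjusted p was 0.0709. Prl, the hormone of lactotropes, was detected in 2 of 6 mutants and 10 of 10 controls and changed by -2.31 (SE 0.35, adjusted p = 6.51e-05; adjusted p = 0.0956 on slide 2). The summed normalised intensity of these 2 lactotrope markers was 51.1 to 114 in mutants, against 149 to 607 in controls, and the part of lactotropes in the Drd2 change was not tested. Sstr1, a somatostatin receptor, was called lower (adjusted p = 0.000239) but was detected in 0 mutants and 6 controls, so no fold is given. Prkcb, a protein kinase C of the pathway downstream of Trhr, changed by -0.84 (SE 0.12, adjusted p = 5.64e-05). Plcb3, a phospholipase C, rose by 0.42 (SE 0.088, adjusted p = 0.00153) and missed the threshold on each slide alone (adjusted p = 0.0802 and 0.0917). Trh was not tested, since it was detected in 2 mutants and 1 control. The somatostatin receptors Sstr2, Sstr3 and Sstr5 were detected in no sample.

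Most transcription factors of the lineage were not called. Of 7 tested, 0 fell by the limma test (1 at an unadjusted p under 0.05) and 1 rose, with a median of -0.018. Pitx1, a homeodomain factor of the whole anterior pituitary, rose by 0.46 (SE 0.14, adjusted p = 0.0211), a call lost within slide 1 (0.40, adjusted p = 0.243), within slide 2 (0.43, adjusted p = 0.185), without mutant 2 (0.34, adjusted p = 0.0643) and without mutant 4 (0.41, adjusted p = 0.0558). Lhx3, a LIM homeodomain factor of early pituitary cells, changed by -0.086 (adjusted p = 0.618). Isl1, a LIM homeodomain factor of the thyrotrope lineage, changed by -0.27 (adjusted p = 0.0575) and lay close to the threshold. It was called lower in 6 of 12 alternative settings: with slide added as a block (-0.32, adjusted p = 0.0161) or the replicate number (-0.34, adjusted p = 0.0369), under cyclic loess (adjusted p = 0.0399), with an offset of 50 (adjusted p = 0.0496), without background correction (adjusted p = 0.0466) and with trended, robust variances (adjusted p = 0.0446). It was also called without mutant 1 (-0.34, adjusted p = 0.0182) and without control 7 (-0.31, adjusted p = 0.0191). Pou1f1 was not analysed here.

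The other receptor genes for thyroid hormone and retinoid X were not called. Thra, the other thyroid hormone receptor gene, changed by 0.26 (SE 0.12, limma adjusted p = 0.122), and it was called higher without mutant 3 (adjusted p = 0.0443) and without control 4 (adjusted p = 0.0139). Rxra changed by 0.20 (adjusted p = 0.153) and Rxrb by 0.027 (adjusted p = 0.730), or by 0.13 through its other probe (adjusted p = 0.342). In this list 1 of 8 genes fell and 1 rose, with a median of 0.075. Both were coactivators: Ncoa1 changed by -0.31 (SE 0.063, adjusted p = 0.00132), a call lost on slide 2 (adjusted p = 0.193), and Ncoa2 rose by 0.40 (adjusted p = 0.0373), a call lost without mutant 1, 3 or 4 or control 2, 3, 6, 7 or 8 (adjusted p from 0.0571 to 0.107), with slide added as a block (adjusted p = 0.0586), under cyclic loess (adjusted p = 0.0758), with no filter (adjusted p = 0.0613) and on each slide alone.

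Among genes that carry or convert thyroid hormone, 1 of 5 tested fell and 1 rose, with a median of 0.10. Dio3, the deiodinase that inactivates the hormone, was detected in 0 mutants and 8 controls and fell at least 1.16-fold (limma adjusted p = 0.000463; adjusted p = 0.0631 on slide 2). Crym, a cytosolic protein that binds the hormone, rose by 0.42 (SE 0.14, adjusted p = 0.0267) and was called on neither slide alone (adjusted p = 0.0984 and 0.103), nor without mutant 4, 5 or 6 (adjusted p = 0.0693, 0.0699 and 0.0555), nor under median scaling (adjusted p = 0.0584). Dio2, the activating deiodinase of the pituitary, and Dio1 were detected in no sample.

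**Figure D4:**
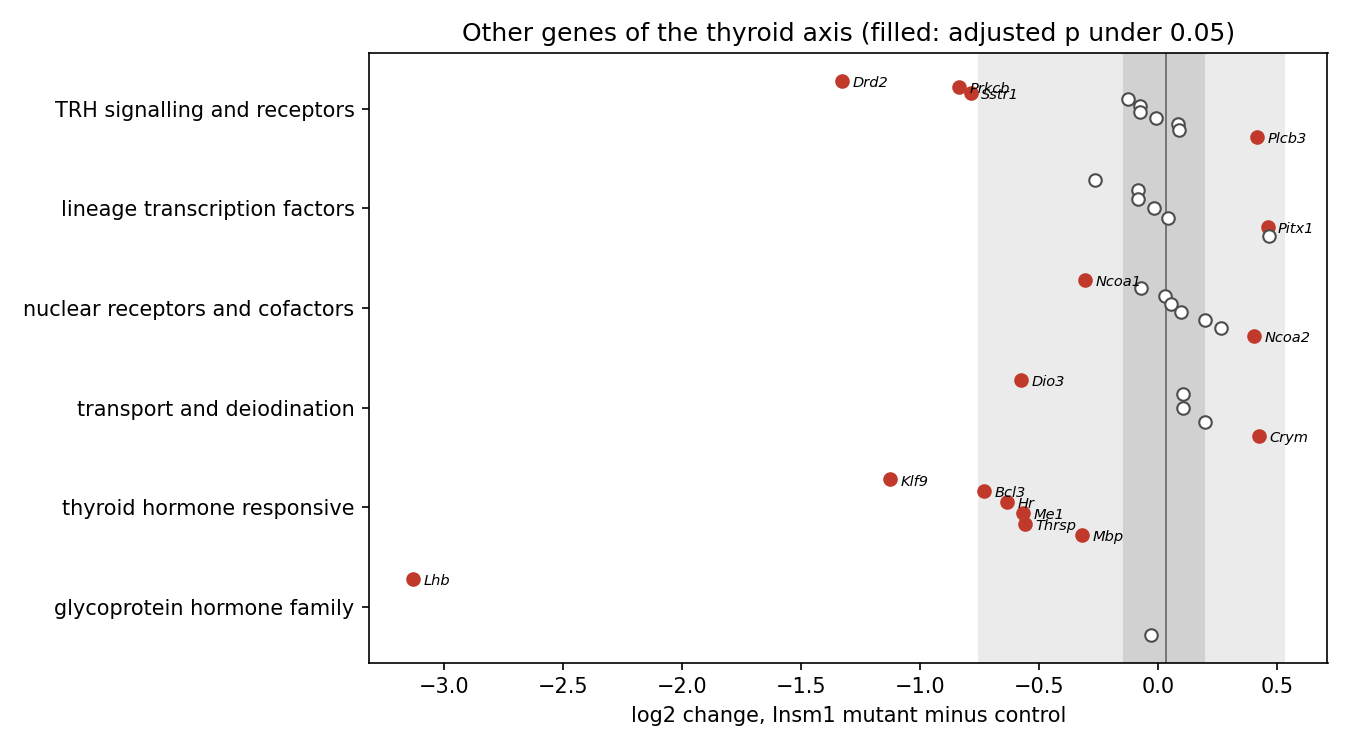
Log2 change, mutant minus control, of the 38 other thyroid axis genes tested, by list; filled points were called (adjusted p under 0.05) and carry their symbol, open points were not. Dark and light bands hold the 25th to 75th and the 5th to 95th percentile of all genes (-0.75 to 0.53), and the line is their median (0.033); Drd2, Sstr1, Dio3, Thrsp and Lhb were detected in no mutant, so their positions are fitted values and not bounds.

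Genes known to respond to thyroid hormone in other tissues fell wherever they could be tested, by the probe with the highest mean. The second probes of Me1 and Mbp were not called, as given below. This list was chosen with earlier results of these data known, so its count is a description. Of 8 listed, 6 were tested and 6 were called lower, against 14.0% of all genes, with a median change of -0.60 against 0.033. Thrsp, detected in 0 mutants and 7 controls, passed the filter on control arrays alone. Bcl3 was detected in 3 mutants and 10 controls. Nrgn and Shh were too dim to be tested. Of the list, 5 genes were called lower within slide 1 and 3 within slide 2, where 9.75% and 4.95% of all genes were.

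Klf9, a Krüppel-like factor induced by thyroid hormone and by glucocorticoids, had the largest change of the list. It read from 10.42 to 11.18 in mutants (median 10.82), against 11.59 to 12.17 in controls (median 12.05). The groups did not overlap, and the change was -1.13 (SE 0.12, limma adjusted p = 8.40e-07), or -1.10 on slide 1 and -1.22 on slide 2. Me1, the cytosolic malic enzyme, was the only other gene of the list without overlap, from 7.60 to 8.06 in mutants against 8.27 to 8.63 in controls, and changed by -0.57 (SE 0.082, adjusted p = 4.18e-05). Its other probe gave -0.26 (adjusted p = 0.378).

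Hr, the hairless corepressor, read from 9.82 to 10.81 in mutants, against 10.52 to 11.13 in controls. Mutant 5 lay within the control range, and the change was -0.64 (SE 0.13, limma adjusted p = 0.00122), or -0.75 through the second probe (adjusted p = 0.00369). It was -0.87 on slide 1 and -0.25 on slide 2, where the call was lost (adjusted p = 0.485). Bcl3, a nuclear regulator of the NF-kappaB family, changed by -0.73 (SE 0.16, adjusted p = 0.00180). It was detected in 3 of 6 mutants and all 10 controls.

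Thrsp, a lipogenic gene, was detected in 0 mutants and 7 controls and fell at least 1.18-fold (limma adjusted p = 0.0293). That call was lost on slide 2 (adjusted p = 0.499), without mutant 2 (adjusted p = 0.0874) and with no filter on dim probes (adjusted p = 0.0524). Mbp, myelin basic protein, changed by -0.32 (SE 0.094, adjusted p = 0.0165) and was called on neither slide alone (adjusted p = 0.0760 and 0.0802), and its other probe gave 0.090 (adjusted p = 0.694).

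**Figure D5:**
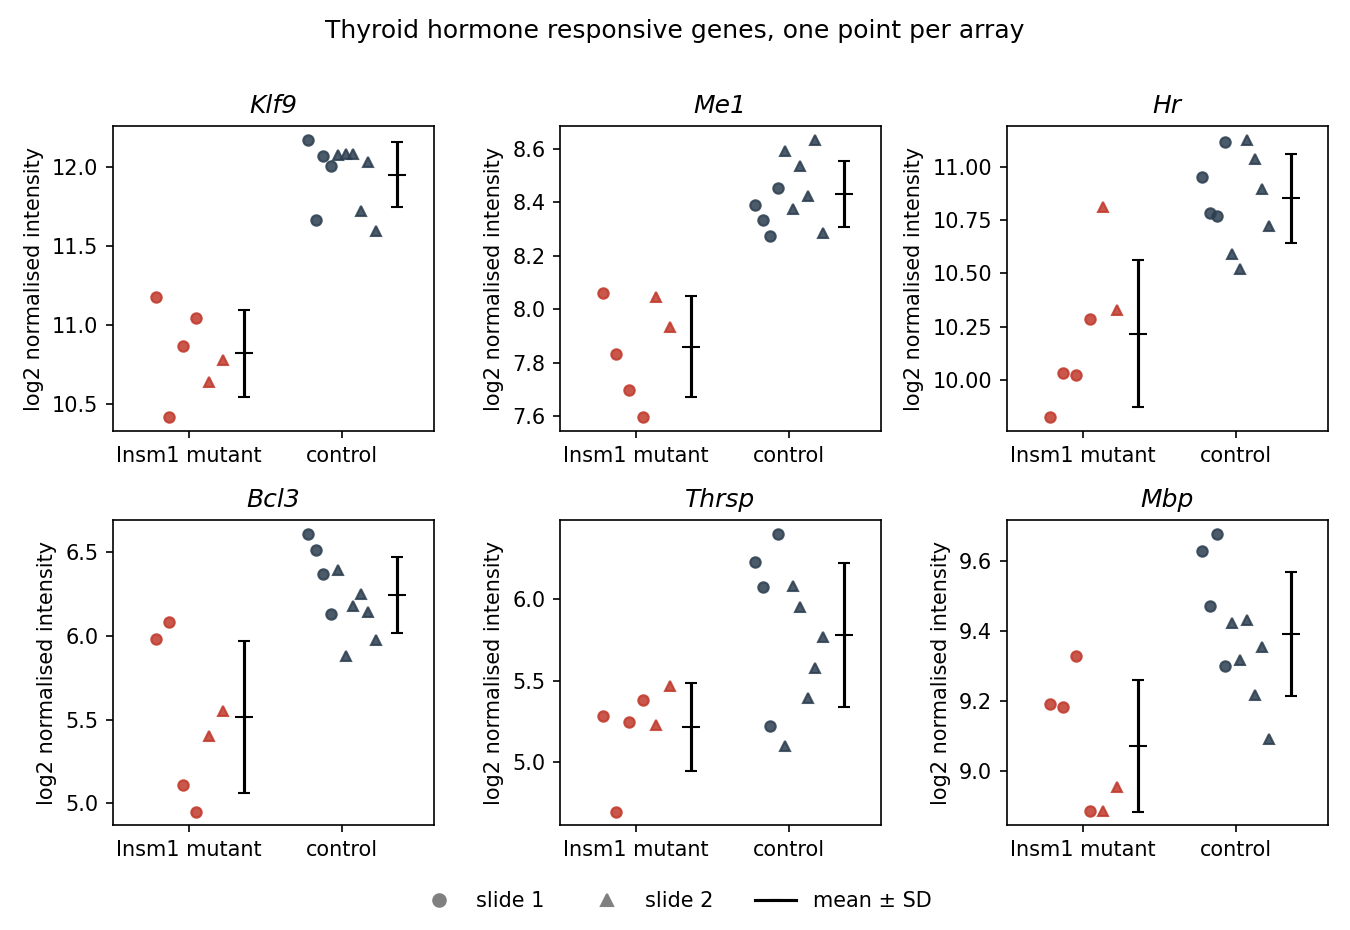
Log2 normalised intensity of the 6 thyroid hormone responsive genes tested, Insm1 mutants (red, n = 6) left of controls (dark, n = 10); circles are slide 1, triangles slide 2, and bars are mean ± SD. Klf9 and Me1 show every mutant below every control, whereas in Hr, Bcl3, Thrsp and Mbp the groups overlap.

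Markers of other cell types moved in the same samples as these lists. All 5 skeletal muscle markers rose, Actc1 by 4.78 and Myl1 by 4.46, with a summed normalised intensity of 13989 to 21290 in mutants, against 884 to 1144 in controls 1 to 9 and 10363 in control 10. The macrophage markers tested rose (2 of 2, Aif1 by 0.49 and Tyrobp by 0.58), with sums of 359 to 503 in mutants, against 254 to 344 in controls. Aif1 and Tyrobp each lost their call in 1 of 12 alternative settings. Of 3 neuron markers tested, 1 fell by limma (Elavl4, -0.39) and all 3 were lower at an unadjusted p under 0.05 (Map2 -0.24, Stmn2 -0.36). The Elavl4 call was lost in 2 of 12 alternative settings, slide 1 alone among them (-0.23, adjusted p = 0.406). The neuron list had sums of 2200 to 3068 in mutants, against 2509 to 3509 in controls, and the Tubb3 and Snap25 probes were detected nowhere. Of 3 corticotrope markers 2 were called lower, with sums of 5282 to 11673 in mutants, against 10317 to 20642 in controls. Pomc changed by -1.09, with its call lost on slide 2 (-0.50, adjusted p = 0.269). Tbx19 changed by -0.41 (adjusted p = 0.0282), and its call was lost without mutant 1, 2, 3 or 4 (adjusted p from 0.0509 to 0.0794), under median scaling (adjusted p = 0.0513), with slide added as a block (adjusted p = 0.0518) and on slide 2 (-0.0029, adjusted p = 0.994). Of the progenitor markers Sox9 rose by 0.50 (adjusted p = 0.0714 on slide 2). Sox2 changed by 0.54 (adjusted p = 0.141) through its brighter probe and by 0.85 through the other (adjusted p = 0.000612), and the brighter probe was called higher with slide added as a block (0.81, adjusted p = 0.000243) and within slide 1 (0.77) and slide 2 (0.86). Their part in the changes above was not tested. Endothelial, erythroid and pituicyte markers had 0 of 2 tested genes called in each list by limma, and 0 at an unadjusted p under 0.05, while a dimmer probe of the endothelial gene Pecam1 gave 0.34 (unadjusted limma p = 0.0223, adjusted p = 0.0715). The erythroid gene Hba-a1 read 15.46 in all 6 mutants and at the control median and maximum. That value is the ceiling of the normalised scale, so a rise of Hba-a1 could not show. Of the thyroid gland markers, Tg was detected in 1 control and Slc5a5 and Pax8 in no sample. Oxt, a hypothalamic hormone gene, was detected in no sample, and Avp in 1 mutant and 3 controls.

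The genes most like Tshb in their variation within the groups were ranked by the Spearman correlation of deviations from the group means over 16 arrays. They were Ankrd35 (0.83), Fam83f (0.82), Grb7 (0.82), Slc25a38 (0.81) and Irf2bp1 (0.80). For Cga they were Phlda3 (0.94), Fkbp1b (0.80), Stra6 (0.79), Csf1 (0.79) and Nlgn2 (0.78). Of the 10 genes 1 was called between the genotypes, Ankrd35 (-0.58, limma adjusted p = 0.000183). These are the highest of 9681 correlations over arrays that share slides, and they are descriptions.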

How the data were processed

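RNA of E17.5 pituitary glands was measured on Illumina bead arrays, 1 per sample. Per the labels' protocols it was extracted with Trizol and RNeasy columns and labelled with biotin by the TotalPrep kit. The submitters' processing notes list GenomeStudio (version not given in the sources used here). The deposited file holds, per the file headers, the average signal (a linear intensity) of 25697 probes, each with its detection p-value. These intensities were read from their values as neither background-subtracted nor normalised. A second deposited table of linear intensity, with values below 0 and array medians of 37.1, ranks probes as the first does and was an alternative, on a log2 scale with a floor of 16.

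Signals were corrected with limma's nec (offset 16), quantile-normalised and logged (limma 3.58.1, R 4.3.3). The filter kept 13813 probes, those detected (p-value under 0.01) in 6 or more of 16 arrays. The model held genotype alone, fitted by lmFit with eBayes moderation. P-values were adjusted over the kept probes by Benjamini and Hochberg's method, and genes under 0.05 were called; all adjusted p-values are limma's. Genes were named through the platform annotation (23978 probes named) and represented by the probe with the highest mean. For probes above background on no array of a group, "at least" gives a bound against the lowest detected signal. The number of arrays limits the precision.

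Named were all probes of the 6 genes, the 3 called genes of each thyroid axis list with the smallest adjusted p, cell type markers, and the 5 genes most like Tshb and Cga. Bcl3, Mbp, Thrsp, Plcb3, Thra, Rxra, Rxrb, Isl1, Lhx3 and genes given only by their detection or as uncalled were added to the text once their values were known. The genes, lists and motifs were chosen with earlier results of these data known. No arrays held identical values. The fit was tested on simulated data with independent noise and no slide effect. It recovered 50 and 49 of 50 probes at log2 changes of -1.0 and 1.0. At -0.5 and 0.5 it recovered 34 and 35 of 50, so changes of that size can go uncalled.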

Additional observations from a re-analysis of the deposited data

Results flagged for a closer look

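Single arrays lay far from the rest of their group, by Dixon's criterion, in 11 of 125 groups of values examined, where chance gives about 5%. Control 10 accounted for 7 of them. It was the lowest control for Tshb (13.84, with the next at 14.20) and for Rxrg (9.82, with the next at 10.27). In the same array the skeletal muscle genes were the highest of the controls, at 13.08 for Myl1, 9.23 for Actc1, 7.78 for Myh8, 9.74 for Tnnt1 and 5.27 for Myod1. With control 10 left out, the change of Tshb was -4.31 and that of Rxrg -1.80. The others were Ncoa1, highest in control 8 (10.56), Thra, highest in control 4 (6.87), Alas2, an erythroid enzyme gene, lowest in control 1 (10.57), and Thrsp, lowest in mutant 2 (4.70).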

How the results depend on the processing

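The changes of Tshb, Cga, Trhr, Gata2 and Rxrg kept their direction and passed the threshold under every alternative run: cyclic loess, median scaling, an offset of 50, no background correction, the deposited normalised values, both other filters, trended and robust variances, the slide as a block, each slide alone, the replicate block and each array left out. Over single arrays left out, Tshb ranged from -4.37 to -4.13 and Trhr from -1.89 to -1.53. Counts moved by over 1.5 times within slides. On slide 1 alone 0 axis genes were called higher (3 at an unadjusted p under 0.05 in limma) and 813 genes in all. On slide 2 alone 5 axis genes, 3 thyroid hormone responsive genes and 479 genes in all were called lower, and 0 axis genes (4 unadjusted) and 268 genes in all higher; these fits hold fewer arrays. The count of axis genes called higher ranged from 1 to 5 over single arrays left out. Signs turned only for genes that were not called: Rax (-0.054 under cyclic loess, -0.011 under median scaling, -0.00062 with an offset of 50, -0.0020 without background correction, -0.070 to 0.083 over arrays left out), Hba-a1 (-0.015 under median scaling), Alas2 (-0.0078 on slide 1, -0.073 to 0.22), Fam83f (0.24 on slide 2) and Slc25a38 (0.13 on slide 2, -0.058 to 0.026); the cause was not tested.

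Mutants and controls 1 to 6 share replicate numbers. Same-numbered arrays also share a slide. Their deviations from the group means correlated from 0.040 to 0.48, below 0.1 for number 3. For mutants 1, 2, 4 and 6 the same-numbered control was the most correlated of the 10 controls. For mutants 3 and 5 it was control 4 and control 8. The main model did not pair samples by number, and whether the numbers mark pairs was not tested. With the replicate number as a block, Tshb changed by -4.31 and Cga by -2.98, and 1409 genes were called lower and 1562 higher. Thrb, detected on no array, is given no change under any setting. Other probes could not be tried for the 6 genes, which had 1 each. Signal over background limits Thrb on all arrays and Trhr, Lhb and Ghrhr in mutants. It limits Drd2, Sstr1, Dio3 and Thrsp in all mutants and in some controls.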
